A study of Mus musculus with 14 samples.

Results

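The expression of 10 genes that mark oligodendrocyte precursor cells and newly formed oligodendrocytes was followed in the brains of aged mice. The genes were Pdgfra, Cspg4, Gpr17, Bmp4, Enpp6, Olig1, Olig2, Sox10, Bcas1 and Itpr2. They were chosen by symbol as markers of these stages, and each had 1 row among the 43346 genes of the count table. RNA sequencing had been done on a brain section holding hippocampus and cortex from 14 female mice aged 23 months. There were 4 non-transgenic controls (NTG, mice 7 to 10), 5 APP/PS1 mice (mice 16 to 20) and 5 APP/PS1 mice treated with CP2 (APP/PS1 + CP2, mice 21 to 25). APP/PS1 mice carry human APP and PS1 transgenes and develop amyloid plaques with age. CP2, a partial inhibitor of complex I of the mitochondrial respiratory chain, was given in drinking water at 25 mg/kg/day from the age of 9 months. The labels call the other 2 groups non-treated, while the treatment protocol gives them vehicle-containing water. All mice had the strain label C57BL/6;SJL-Tg. The genotype label of both transgenic groups was APP/PS1 +/+, and the promoter driving the transgenes is not given in the sources used here. NTG mice given CP2 are not part of the samples analysed here, so that an effect of CP2 without the transgenes could not be examined.

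Oligodendrocytes wrap axons in myelin and arise throughout adult life from precursor cells that are spread over grey and white matter. Precursors divide in response to platelet-derived growth factor and carry its receptor Pdgfra and the proteoglycan NG2, the product of Cspg4. On the way to myelination they pass through a committed stage marked by Gpr17 and Bmp4 and a newly formed stage marked by Enpp6, Bcas1 and Itpr2, while the transcription factors Olig1, Olig2 and Sox10 act through the whole lineage. The question asked of each gene was whether its level differed between APP/PS1 and NTG mice, and between APP/PS1 mice given CP2 and those given none.

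All 10 genes were detected in every mouse and passed the filter on low counts in every comparison. The smallest count was 106 reads, for Bmp4, and the largest 24195 reads, for Bcas1. Total counts per mouse ranged from 70548781 to 106235625, so that 1 read was worth between 0.00923 and 0.0149 CPM (counts normalised to the library size with TMM factors). Of the 12 further precursor genes in the table, all 12 were tested, and their summed level lay between 629.8 and 731.8 CPM in the 14 mice. In a whole-tissue sample fewer cells of a type and less RNA per cell cannot be told apart. APP/PS1 mouse 16 stood apart from the other 13 mice on the second principal component (-49.4, against -5.1 to 14.4) and had a summed level of 10 striatum markers of 2660.0 CPM, against 209.3 to 401.6 CPM in the others. Its summed level of 16 mature myelin genes, 5518.2 CPM, was the lowest of all mice. Results are therefore also given without mouse 16 for some genes. The endogenous App gene differed by 0.03 on the log2 scale between APP/PS1 and NTG mice (SE 0.05, edgeR adjusted p = 0.799), and counts on mouse genes gave no check of the human transgenes.

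Positions are given in the mm10 coordinates of the table, counted from 1. Pdgfra spans chr5:75152291-75198204 on the plus strand, Cspg4 chr9:56865104-56899870 (plus), Bmp4 chr14:46383520-46390669 (minus), Enpp6 chr8:46986925-47094895 (plus), Sox10 chr15:79154913-79164490 (minus), Bcas1 chr2:170346991-170427845 (minus) and Itpr2 chr6:146108299-146502223 (minus). Olig2 (chr16:91225550-91228677) and Olig1 (chr16:91269772-91271933) are neighbours on the plus strand of chromosome 16. Olig1 has a gene length of 2162 bases, its whole span, and Itpr2 is the longest gene, with 13484 bases of gene length in the table. Some genes share exon bases with others. Bcas1 shares 440 exon bases with the antisense RNA Bcas1os1 and 34 with Bcas1os2, both on the opposite strand. Gpr17 shares 188 exon bases, 3.6% of its own, with Lims2 on the opposite strand. A read on shared bases was counted on each gene, and the library kit does not mark strand, so the counts of these genes can hold reads of their partners. Pdgfra shares 30 bases with the microRNA gene Mir7025, and Bmp4 shares 89 with Gm15217, which had at most 5 counts in a mouse.

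Olig1 and Olig2 belong to the basic helix-loop-helix family, whose members bind the E-box CANNTG, and Sox10 to the SOX family, which binds letters such as ACAAAG and ACAATG. RefSeq promoter windows of the GRCm38.p6 build, read here as the 250 bases before each gene's RefSeq start, were found for 6 of the 10 genes (Pdgfra, Cspg4, Bmp4, Enpp6, Olig2 and Itpr2). Distances are counted to the RefSeq start, which is the first base after the window and for Pdgfra and Enpp6 lies before the start given in the table. Both strands were searched, and no E-box overlapped a SOX-type motif in the windows shown. An E-box was found in 2 of the 6 windows, against 66.0% of 27025 windows of the same length, and a SOX-type motif in 2 of 6, against 25.5%. The windows of 3 genes with a motif and no annotated exon bases are printed to show these letters in place, 5′ to 3′ on the gene's strand, with the motifs in capitals. Pdgfra (chr5:75152001-75152250) has 1 E-box, which begins 182 bases before the RefSeq start. Bmp4 (chr14:46390670-46390919, minus strand) has 3 E-boxes, which begin 188, 177 and 123 bases before the RefSeq start. Enpp6 (chr8:46986637-46986886) has 1 SOX-type motif, which begins 219 bases before the RefSeq start. A match is a description of the letters and not a binding site.
Pdgfra: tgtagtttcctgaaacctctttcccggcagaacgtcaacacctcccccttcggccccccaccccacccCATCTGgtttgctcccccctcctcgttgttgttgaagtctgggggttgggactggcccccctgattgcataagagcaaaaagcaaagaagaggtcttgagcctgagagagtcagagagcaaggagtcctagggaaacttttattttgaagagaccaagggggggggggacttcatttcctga
Bmp4: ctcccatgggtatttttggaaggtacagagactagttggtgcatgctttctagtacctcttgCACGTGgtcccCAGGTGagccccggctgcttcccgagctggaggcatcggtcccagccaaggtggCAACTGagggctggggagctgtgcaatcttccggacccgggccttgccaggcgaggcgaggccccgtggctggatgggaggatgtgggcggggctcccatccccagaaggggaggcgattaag
Enpp6: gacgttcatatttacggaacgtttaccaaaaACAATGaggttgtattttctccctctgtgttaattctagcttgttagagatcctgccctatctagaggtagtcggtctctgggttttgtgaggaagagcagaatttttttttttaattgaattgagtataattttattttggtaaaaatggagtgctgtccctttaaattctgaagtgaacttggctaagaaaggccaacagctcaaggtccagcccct

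Levels of different genes were compared per kilobase of the gene length in the table. The transcription factor Olig1 had the highest level, at 57.3 ± 6.07 CPM per kb (mean and SD, n = 14), followed by Bcas1, a protein of early myelinating cells, at 47.5 ± 8.32 CPM per kb. The ranges of these genes overlapped, but Olig1 was above Bcas1 in 13 of the 14 mice, the exception being NTG mouse 7. Sox10 followed at 18.7 ± 2.01, Olig2 at 12.6 ± 1.30, Pdgfra at 10.1 ± 0.564 and Gpr17 at 7.93 ± 1.11 CPM per kb. Of these neighbours, Pdgfra and Gpr17 overlapped in range, with Pdgfra higher in all 14 mice. Cspg4 had 3.05 ± 0.279, Itpr2 between 2.04 and 2.58, Enpp6 1.58 ± 0.364 and Bmp4 0.850 ± 0.177 CPM per kb. The ranges of Itpr2 and Enpp6 overlapped, as did those of Enpp6 and Bmp4, although the order held within each of the 14 mice. The order of group means was the same in the NTG, APP/PS1 and APP/PS1 + CP2 groups.

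**Figure D1:**
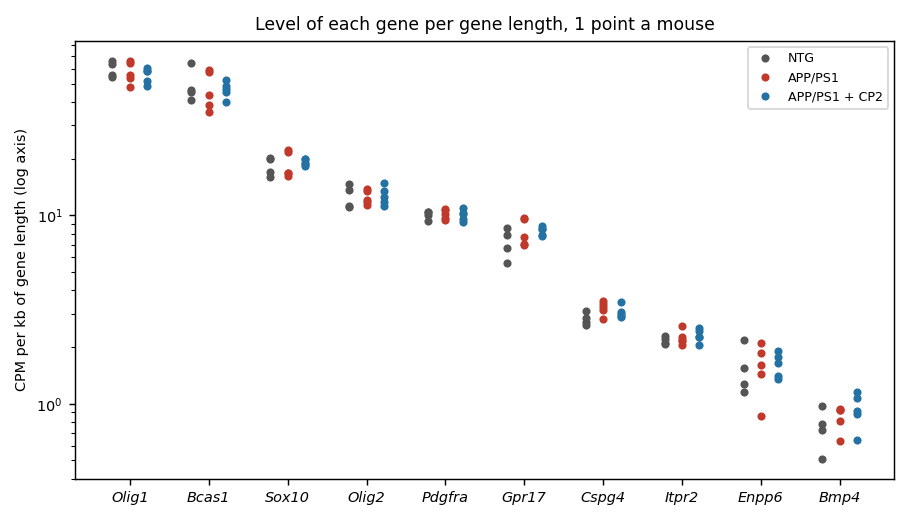
Level of each gene in CPM per kb of gene length (log axis), 1 point a mouse, in NTG (n = 4), APP/PS1 (n = 5) and APP/PS1 + CP2 mice (n = 5). Genes are ordered by their mean over all mice, from Olig1 at 57.3 to Bmp4 at 0.850 CPM per kb, and the groups lie over each other for every gene.

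Pdgfra, the receptor that drives precursor division, was the steadiest of the genes. Its level was 67.3, 69.9, 63.1 and 69.9 CPM in NTG mice, 64.8, 68.4, 63.8, 73.0 and 71.9 CPM in APP/PS1 mice, and 68.5, 73.8, 69.4, 62.0 and 64.1 CPM in APP/PS1 + CP2 mice. The groups overlapped almost fully, and the coefficient of variation over all mice was 5.60%. In APP/PS1 against NTG mice its log2 fold change was 0.03 (SE 0.06, 95% interval -0.11 to 0.16, edgeR adjusted p = 0.869). With CP2 it was -0.02 in APP/PS1 mice (95% interval -0.15 to 0.11, adjusted p = 0.958). As folds, the interval for APP/PS1 against NTG mice ran from 0.93 to 1.12.

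Cspg4 encodes the NG2 proteoglycan, which is carried by precursors and also by pericytes. It had 23.0, 21.2, 21.8 and 25.0 CPM in NTG mice and 27.2, 22.7, 25.2, 26.3 and 28.4 CPM in APP/PS1 mice. In 4 of the 5 APP/PS1 mice it was above the highest NTG mouse, and APP/PS1 mouse 17 lay within the NTG range. The log2 fold change was 0.20 (SE 0.08, 95% interval 0.03 to 0.37), with an unadjusted p of 0.0278 and an edgeR adjusted p of 0.196 over all genes tested, so the difference did not pass the threshold of 0.05. The unadjusted p was above 0.05 without NTG mouse 8 or 9 (log2 fold change 0.17 and 0.18) or without APP/PS1 mouse 19 or 20 (0.19 and 0.16). APP/PS1 + CP2 mice had 24.7, 28.0, 23.6, 23.1 and 24.1 CPM, values that spread over those of both other groups. Their log2 fold change was -0.07 against APP/PS1 mice (95% interval -0.23 to 0.09, adjusted p = 0.839) and 0.13 against NTG mice (95% interval -0.02 to 0.29, adjusted p = 0.334). The summed level of 9 pericyte and mural cell markers was 133.0 to 159.3 CPM in NTG, 170.3 to 272.4 CPM in APP/PS1 and 207.3 to 257.3 CPM in APP/PS1 + CP2 mice. All 9 had a positive fold change in APP/PS1 against NTG mice, as Cspg4 did, with a median of 0.38 on the log2 scale. Of them 0 were called higher, against 4.34% of all genes tested (without mouse 16, Vtn was called at 0.45, adjusted p = 0.0346). With CP2 in APP/PS1 mice 7 of the 9 had a positive and 2 a negative fold change (median 0.10), where that of Cspg4 was negative. Their part in the Cspg4 values was not tested.

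Gpr17, a receptor that appears when precursors commit to differentiation and is lost before myelination, lies on the minus strand of chromosome 18 and varied more. NTG mice had 35.0, 28.9, 41.0 and 44.3 CPM and APP/PS1 mice 49.4, 36.7, 36.3, 40.1 and 50.3 CPM. APP/PS1 + CP2 mice had 44.2, 45.8, 40.8, 44.2 and 40.1 CPM, the narrowest spread of the groups (SD 2.47 CPM, against 6.80 in NTG and 6.82 in APP/PS1 mice). NTG mouse 8 was the lowest of all and the groups overlapped. The log2 fold change was 0.20 in APP/PS1 against NTG mice (SE 0.14, 95% interval -0.12 to 0.51, adjusted p = 0.522) and 0.02 with CP2 in APP/PS1 mice (95% interval -0.20 to 0.23, adjusted p = 0.974). Between APP/PS1 + CP2 and NTG mice it was 0.22 (95% interval -0.01 to 0.45, edgeR adjusted p = 0.270), and 0.12 without NTG mouse 8. With CP2 in APP/PS1 mice it was 0.08 without mouse 16.

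Bmp4, a secreted growth factor of the TGF-beta family that is transcribed by committed precursors, was the gene with the fewest reads. It had 1.74, 1.62, 2.16 and 1.13 CPM in NTG, 1.81, 2.05, 2.07, 1.41 and 2.09 CPM in APP/PS1 and 1.96, 2.57, 1.43, 2.37 and 2.03 CPM in APP/PS1 + CP2 mice. Each group held both a mouse under 1.5 CPM and a mouse over 2 CPM. Between APP/PS1 and NTG mice the log2 fold change was 0.19 (SE 0.19, 95% interval -0.23 to 0.61, adjusted p = 0.666), and with CP2 in APP/PS1 mice it was 0.14 (95% interval -0.22 to 0.51, adjusted p = 0.863). The largest fold change of any of the 10 genes in the 3 comparisons was that of Bmp4 between APP/PS1 + CP2 and NTG mice, 0.34 (SE 0.21), but its interval of -0.12 to 0.79 included 0 and its adjusted p was 0.400.

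Enpp6 encodes a choline-specific phosphodiesterase and is a marker of cells that have just begun to differentiate. Its values were 9.59, 6.81, 5.64 and 5.14 CPM in NTG, 3.81, 6.37, 9.22, 8.19 and 7.11 CPM in APP/PS1 and 8.42, 5.95, 7.84, 7.25 and 6.20 CPM in APP/PS1 + CP2 mice. It varied most of the 10 genes, by 2.52 times between APP/PS1 mouse 16, the lowest, and NTG mouse 7, the highest, and these mice lay in different groups. The log2 fold change was 0.04 in APP/PS1 against NTG mice (SE 0.26, 95% interval -0.54 to 0.62, adjusted p = 0.957) and 0.04 with CP2 (95% interval -0.40 to 0.48, adjusted p = 0.971). Without mouse 16 these became 0.19 and -0.11, and without NTG mouse 7 the first became 0.26, and none of these passed the threshold.

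Bcas1 followed the same mice. It had 243.3, 175.4, 154.2 and 169.9 CPM in NTG mice, 133.9, 146.2, 223.2, 217.7 and 164.3 CPM in APP/PS1 mice, and 197.1, 183.2, 177.4, 171.3 and 150.8 CPM in APP/PS1 + CP2 mice. NTG mouse 7 was again the highest and APP/PS1 mouse 16 the lowest. The log2 fold change was -0.06 in APP/PS1 against NTG mice (SE 0.18, 95% interval -0.47 to 0.35, adjusted p = 0.903) and -0.01 with CP2 (95% interval -0.32 to 0.30, adjusted p = 0.988). Without mouse 16 they were 0.03 and -0.09, and without NTG mouse 7 the first was 0.10. Itpr2, an intracellular calcium channel listed here as a marker of newly formed cells, ranged from 27.6 to 34.8 CPM over the 14 mice. It was not tested which cells of the tissue held its transcripts. Its group means were 29.3 ± 1.40 CPM in NTG (SD, n = 4), 30.2 ± 2.72 in APP/PS1 (n = 5) and 31.0 ± 2.39 in APP/PS1 + CP2 mice (n = 5). The log2 fold changes of Itpr2 were 0.06 (SE 0.07, adjusted p = 0.756), 0.04 (adjusted p = 0.921) and, for APP/PS1 + CP2 against NTG mice, 0.10 (adjusted p = 0.448).

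The lineage transcription factors stayed within the spread between mice. Olig1 lay between 116.5 and 142.7 CPM in NTG, between 103.2 and 143.1 CPM in APP/PS1 and between 105.1 and 130.5 CPM in APP/PS1 + CP2 mice. Its log2 fold changes were -0.05 for APP/PS1 against NTG (95% interval -0.28 to 0.18), -0.05 with CP2 (-0.25 to 0.16) and -0.09 for APP/PS1 + CP2 against NTG mice (-0.26 to 0.08), with adjusted p of 0.852, 0.919 and 0.553. Olig2, its neighbour on chromosome 16 and needed for the lineage to form, lay between 27.0 and 36.1 CPM in the 14 mice, and its fold changes were -0.01, 0.03 and 0.03 on the log2 scale, with adjusted p from 0.923 to 0.985. Sox10, which switches on myelin genes, had 53.8, 43.5, 46.1 and 54.6 CPM in NTG, 43.6, 45.5, 60.4, 58.6 and 45.2 CPM in APP/PS1 and 51.5, 53.8, 54.3, 51.1 and 49.5 CPM in APP/PS1 + CP2 mice. In APP/PS1 mice Sox10 fell into a higher pair (mice 18 and 19) and 3 lower mice, and all CP2-treated mice lay between them. Its log2 fold changes were 0.04 (SE 0.12, adjusted p = 0.894), 0.04 (adjusted p = 0.942) and 0.08 (adjusted p = 0.551). Without mouse 16 the fold change with CP2 was -0.01 for Sox10 and -0.11 for Olig1.

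**Figure D2:**
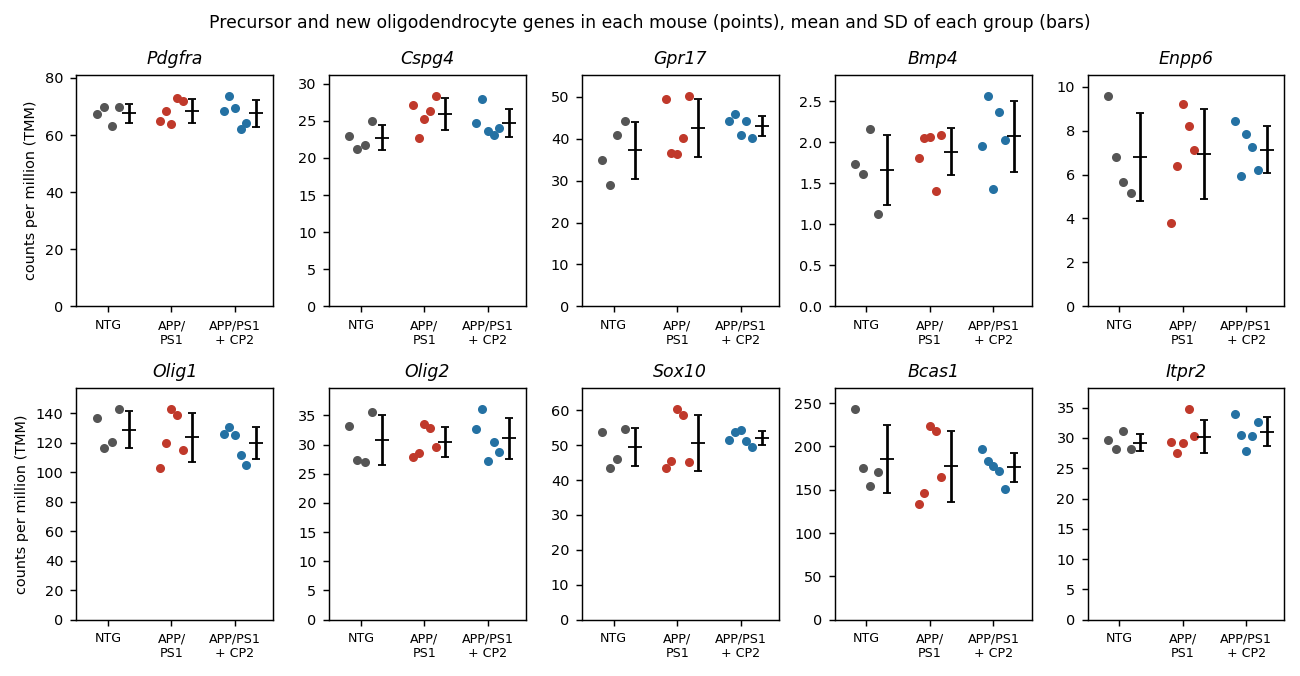
CPM (TMM-normalised) of each gene by mouse, with points for NTG (n = 4), APP/PS1 (n = 5) and APP/PS1 + CP2 mice (n = 5) and bars for the group mean and SD, each vertical axis starting at 0. The groups overlap for every gene, Pdgfra is the steadiest and Enpp6 the most variable.

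Over the whole set, 0 of the 10 genes passed an edgeR adjusted p of 0.05 in APP/PS1 against NTG mice, where 5.68% of 16417 genes tested did. With CP2 in APP/PS1 mice 0 of 10 passed, against 0.00609% of 16407 genes, and between APP/PS1 + CP2 and NTG mice 0 of 10, against 6.02% of 16416 genes. DESeq2 and limma-voom also called 0 of the 10 in each comparison. An unadjusted p under 0.05, the study's own threshold, was reached by 1 gene (Cspg4) between APP/PS1 and NTG mice, against 18.7% of all genes, and by 0 in the other comparisons, against 6.55% and 20.2%. The groups overlapped for 10 of 10 genes in each comparison, as they did for 90.0%, 98.9% and 90.4% of all genes tested. The median log2 fold change of the 10 genes was 0.04, 0.02 and 0.08, beside -0.004, -0.006 and -0.002 over all genes tested. These comparisons share mice (each group is part of a pair of them), so their values are not independent. The precision can be read from the intervals. The 95% interval of the fold change lay within 1.5-fold in either direction for 8 of 10 genes between APP/PS1 and NTG mice (not for Bmp4 and Enpp6), for 10 of 10 with CP2, and for 9 of 10 between APP/PS1 + CP2 and NTG mice (not for Bmp4). It lay within 2-fold for all 10 in each comparison.

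**Figure D3:**
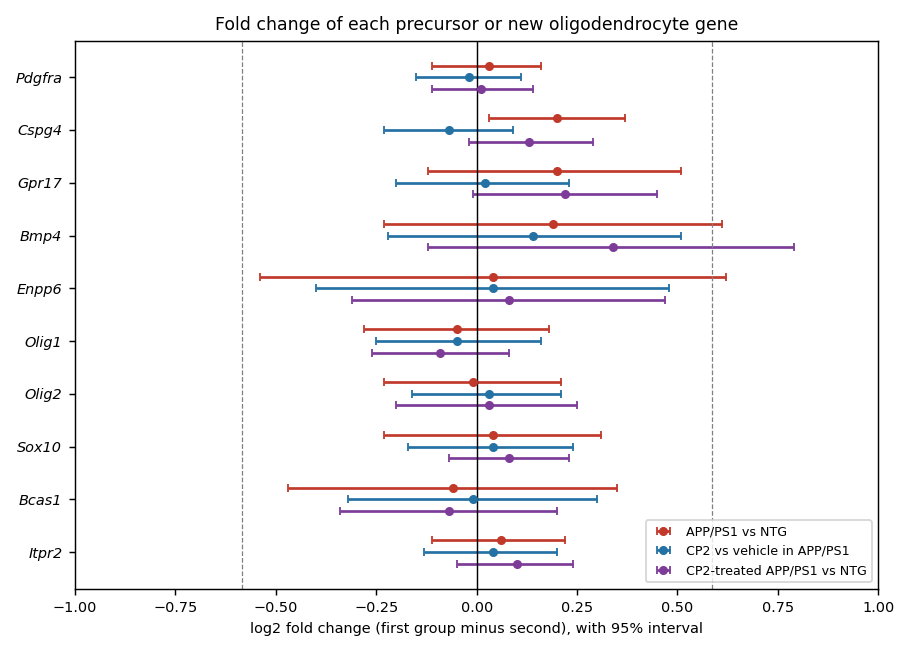
Log2 fold change of each gene with its 95% interval (bars) in the 3 comparisons, APP/PS1 against NTG, APP/PS1 + CP2 against APP/PS1, and APP/PS1 + CP2 against NTG mice, with dashed lines at 1.5-fold. Of the intervals, that of Cspg4 between APP/PS1 and NTG mice (0.03 to 0.37) leaves out 0.

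The genes differed in how they varied from mouse to mouse. The coefficient of variation over the 14 mice was 5.60% for Pdgfra, 7.42% for Itpr2, 9.14% for Cspg4, 10.3% for Olig2, 10.6% for Olig1 and 10.7% for Sox10. It was higher for Gpr17, Bcas1 (17.5%), Bmp4 (20.8%) and Enpp6 (23.0%). Likeness of pattern was measured as the root mean square difference of log2 CPM values, each centred and divided by its SD over the 14 mice, where 0 is the same pattern. The median difference of a gene from all others was between 1.33 and 1.40. Among the 10 genes the pairs most alike were Enpp6 and Bcas1 (0.56), Olig1 and Sox10 (0.63), Olig1 and Bcas1 (0.65) and Sox10 and Bcas1 (0.67). Cspg4 and Gpr17 were also alike (0.70). The pairs least alike were Gpr17 with Enpp6 (1.63) and Bmp4 with Olig1 (1.61). The points share libraries, dissection and scaling, and the differences are given as a description.

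Set beside mature myelin, Bcas1 and Enpp6 parted from the precursor genes. The summed level of 16 mature myelin genes, among them Mbp, Mog and Mag, ran from 5518.2 CPM in APP/PS1 mouse 16 to 8764.9 CPM in NTG mouse 7. The difference in pattern from this sum was 0.45 for Bcas1 and 0.51 for Enpp6, 0.80 for Olig1 and Sox10, and 0.91 for Olig2. It was 1.23 for Itpr2, 1.24 for Pdgfra, 1.29 for Bmp4, 1.37 for Cspg4 and 1.62 for Gpr17. The difference of all other genes from this sum was not computed, so these values have no background beside them. Itpr2 was thus less like the myelin sum than Enpp6 and Bcas1, the other genes listed here as markers of newly formed cells. Pdgfra and Cspg4 together amounted to 1.03% of the myelin sum in NTG mouse 7 and 1.67% in APP/PS1 mouse 16, the extremes of the 14 mice. In CP2-treated mice the share lay between 1.25% and 1.42%. Bcas1, Enpp6 and Itpr2 together held between 2.55% and 3.34% of the myelin sum, in APP/PS1 mice 17 and 19. The myelin sum itself had the ranges 6104.1 to 8764.9 CPM in NTG, 5518.2 to 8364.6 in APP/PS1 and 6449.6 to 7221.6 in APP/PS1 + CP2 mice, which overlapped. The CP2-treated group had the smallest SD of the 3 groups for Gpr17, Enpp6, Olig1, Sox10, Bcas1 and the myelin sum. It had the largest SD for Pdgfra and Bmp4, and its SD lay between those of the other groups for Cspg4, Olig2 and Itpr2. Mouse 16 was the lowest APP/PS1 mouse for Enpp6, Olig1, Sox10, Bcas1 and the myelin sum. This is a description of 5 mice without a test.

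**Figure D4:**
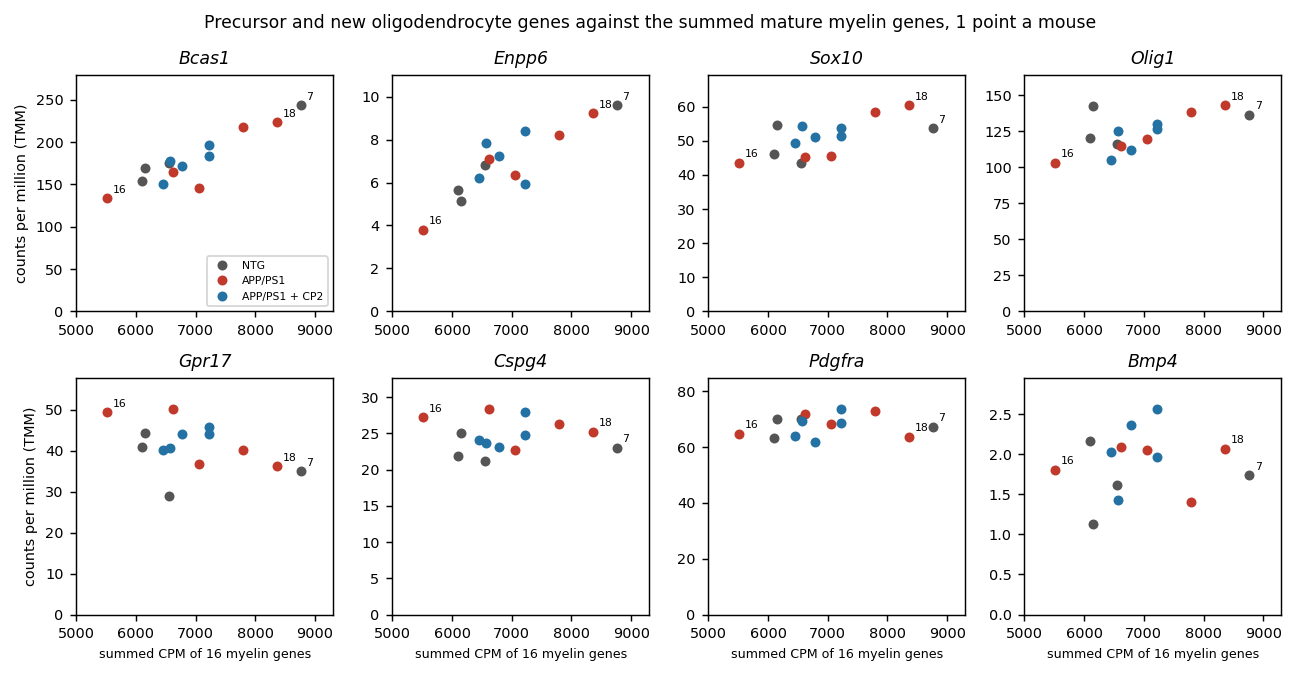
Level in CPM of 8 of the genes (vertical axes, from 0) against the summed CPM of 16 mature myelin genes (horizontal axes, which do not start at 0), 1 point a mouse, colours by group, with NTG mouse 7 and APP/PS1 mice 16 and 18 numbered. Bcas1 and Enpp6 lie along a rising line from mouse 16 to mouse 7, while Pdgfra and Cspg4 lie flat.

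By the same measure the 3 genes most like each of the 10 were found among 16197 genes. They are close by selection and are given as a description without a test. Of them, only Nkx6-2 and Nkx2-2 were on the gene lists used here. For Bcas1 they were its antisense RNAs Bcas1os2 (0.18) and Bcas1os1 (0.19), which share exon bases with it, and Gm29585 (0.33). The pattern of Sox10 was nearest to that of Nkx6-2 (0.36), a homeobox factor of oligodendrocytes, then Nacad (0.40) and Mrap2 (0.41). Olig1 was nearest to Mpp6 (0.33), Arl2 (0.34) and Efhd1 (0.35). For Olig2 the nearest were Slc25a15 (0.50), Plod1 (0.58) and Nkx2-2 (0.61), a homeobox factor of differentiating precursors. Enpp6 was nearest to Esrrb (0.37), Cwf19l2 (0.41) and Fstl1 (0.42). The nearest genes of Gpr17 were Polr1a (0.47), Ptger1 (0.49) and B4galt3 (0.52), and those of Itpr2 were Ice2 (0.47), Cd46 (0.48) and Nfkbiz (0.54). Pdgfra (Cmtm7, 0.53), Cspg4 (Pou2f2, 0.53) and Bmp4 (Gm6829, 0.61) had the largest difference from their nearest gene.

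Other genes of the same stages were read from fixed lists. Of 12 further precursor genes tested between APP/PS1 and NTG mice, 1 was higher and 0 lower, against 4.34% and 1.34% of all genes tested. This was Matn4, a matrix protein, at 9.30 to 12.8 CPM in NTG and 13.7 to 18.2 CPM in APP/PS1 mice, with a log2 fold change of 0.50 (SE 0.12, edgeR adjusted p = 0.0343). All 5 APP/PS1 mice were above all NTG mice. Its call was lost without NTG mouse 7, 8 or 9 or APP/PS1 mouse 18, 19 or 20, with an adjusted p of up to 0.100 and a fold change between 0.43 and 0.59. Among the other precursor genes, Xylt1 had -0.22 (adjusted p = 0.0935), Vcan 0.09 (adjusted p = 0.607) and Pcdh15, a protocadherin, 0.07 (adjusted p = 0.745). The median of the list was 0.07. Of 11 further genes of newly formed oligodendrocytes 0 were higher and 1 lower. Ust, a sulfotransferase that acts on chondroitin and dermatan sulfate, fell by 0.37 on the log2 scale (SE 0.08, adjusted p = 0.0173), from 30.5 to 36.9 CPM in NTG mice to 22.9 to 28.4 CPM in APP/PS1 mice, without overlap. Without NTG mouse 9 its adjusted p was 0.0525. Tmem2 had 0.21 (adjusted p = 0.124). Tcf7l2, a Wnt pathway factor of the same stage, had 31.5, 37.2, 46.4 and 51.8 CPM in NTG mice, 5.33 CPM in APP/PS1 mouse 16 and 31.8 to 35.6 CPM in the other APP/PS1 mice, and 38.4 to 46.2 CPM in APP/PS1 + CP2 mice. In APP/PS1 against NTG mice it had a log2 fold change of -0.56 (SE 0.43, adjusted p = 0.545), or -0.30 (SE 0.13, adjusted p = 0.224) without mouse 16. Tcf7l2 is also transcribed by neurons of the thalamus. The summed level of 9 thalamus markers was 280.0 to 510.2 CPM in NTG, 158.8 (mouse 16) to 387.8 CPM in APP/PS1 and 301.1 to 499.3 CPM in APP/PS1 + CP2 mice, and all 9 fold changes of APP/PS1 against NTG mice were negative (median -0.48, 0 called). Without mouse 16 all 9 markers were also negative, from -0.76 to -0.02, and their calls did not change. Their part in the Tcf7l2 values was not tested. Of 12 further lineage regulators 0 were called, Myrf having 0.15 (adjusted p = 0.561) and Zfp536 -0.13 (adjusted p = 0.260). Hes5, a Notch target, had -0.44 (SE 0.20, adjusted p = 0.276), and without mouse 16 it was called lower (-0.67, SE 0.10, adjusted p = 0.00169). The cells that held Hes5 transcripts were not tested.

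With CP2 in APP/PS1 mice 0 genes of these lists were called in either direction, and the medians were -0.00, 0.02 and 0.04. An unadjusted p under 0.05 was likewise reached by 0 genes of the 3 lists. Tcf7l2 had 0.59 (SE 0.37, adjusted p = 0.763) with all APP/PS1 + CP2 mice above all APP/PS1 mice, and 0.33 (SE 0.06, adjusted p = 0.209) without mouse 16. The edgeR unadjusted p without mouse 16 was 0.000218, for a gene named after its values were seen. The 9 thalamus markers had a median of 0.57 in this comparison, with 0 called. Without mouse 16 all 9 were also positive, from 0.19 to 0.76, and their calls did not change. Their part in the Tcf7l2 values was not tested here either. Between APP/PS1 + CP2 and NTG mice Ust was lower (log2 fold change -0.32, SE 0.07, adjusted p = 0.0174), the only call in these 3 lists, where 1.46% of all genes were called lower. This call was kept with each mouse left out. The precursor gene Susd5 had 0.24 (adjusted p = 0.114) and Matn4 0.32 (adjusted p = 0.156), and the lineage regulator Hes5 had -0.40 (adjusted p = 0.113).

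Of the 16 mature myelin genes 1 was higher in APP/PS1 than in NTG mice and 0 lower, against 4.34% and 1.34% of all genes tested, a count near that background. Cldn11, which forms the tight junctions of myelin, had 107.3 to 126.5 CPM in NTG mice and 141.4 to 170.0 CPM in APP/PS1 mice, without overlap (log2 fold change 0.46, SE 0.07, adjusted p = 0.00366), and the call was kept with each mouse left out. The other myelin genes did not pass, with Mbp at -0.06 (adjusted p = 0.886) and Ermn at -0.15 (adjusted p = 0.692). Trf had 0.44 (adjusted p = 0.233), or 0.57 (adjusted p = 0.0163) without mouse 16. In APP/PS1 + CP2 against NTG mice 2 were higher, Cldn11 (0.30, adjusted p = 0.0247) and the iron carrier Trf (0.46, adjusted p = 0.0206), against 4.56% of all genes. The call of Cldn11 was lost without NTG mouse 8, 9 or 10 or CP2-treated mouse 21 or 25 (fold change 0.26 to 0.35 with a mouse left out, adjusted p up to 0.0820), and that of Trf without NTG mouse 8, 9 or 10 or CP2-treated mouse 21 or 24 (0.39 to 0.58, up to 0.0694) and in a joint fit of the 3 groups. Against APP/PS1 mice, CP2 gave -0.17 for Cldn11 (adjusted p = 0.744) and 0.02 for Trf (adjusted p = 0.976).

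Pdgfra and Bmp4 each belong to a signalling pathway, of which 22 further genes were tested. Among PDGF ligands, Pdgfa, the main ligand of Pdgfra, had a log2 fold change of -0.08 in APP/PS1 against NTG mice (adjusted p = 0.530) and Pdgfb 0.33 (adjusted p = 0.0784). The second receptor, Pdgfrb, a marker of pericytes, had 0.15 (adjusted p = 0.467), and it was higher in APP/PS1 + CP2 than in NTG mice (0.24, SE 0.06, adjusted p = 0.0415). That call was lost without NTG mouse 7, 9 or 10 or CP2-treated mouse 21, 22, 24 or 25 (0.21 to 0.28, adjusted p up to 0.114), with no filter on low counts and in a joint fit of the 3 groups. Of the 22 genes of both pathways 3 were higher in APP/PS1 than in NTG mice and 0 lower, against 4.34% and 1.34% of all genes tested. The fold change was positive for 13 of the 22 and negative for 9, with a median of 0.01 on the log2 scale. All 3 called genes belong to the BMP pathway, which makes up most of the list. The ligand Bmp7 rose by 0.44 (adjusted p = 0.0342), and the target genes Id1 and Id3, inhibitors of basic helix-loop-helix factors, by 0.42 (adjusted p = 0.0218) and 0.38 (adjusted p = 0.0270). APP/PS1 mice had 10.2 to 12.6 CPM of Id1, against 7.78 to 9.51 CPM in NTG mice, and 27.6 to 36.6 CPM of Id3, against 24.1 to 27.3 CPM. That of Bmp7 was lost without NTG mouse 7, 9 or 10 or APP/PS1 mouse 18, 19 or 20 (0.39 to 0.53, adjusted p up to 0.110), that of Id3 without the same mice (0.34 to 0.44, up to 0.0909), and that of Id1 without NTG mouse 8, 9 or 10 or APP/PS1 mouse 17 or 18 (0.38 to 0.47, up to 0.0659). The receptors Bmpr1a (0.02, adjusted p = 0.859) and Bmpr2 (-0.02, adjusted p = 0.859) and the antagonist Nog (-0.07, adjusted p = 0.798) did not pass. The related genes Id2 (-0.06, adjusted p = 0.862) and Id4 (0.11, adjusted p = 0.683), listed as lineage regulators, did not pass either. Which cells of the tissue held these transcripts was not tested. With CP2 in APP/PS1 mice 0 of the 22 genes were called, Bmp7 having -0.19 (adjusted p = 0.751), Id1 -0.14 (adjusted p = 0.757) and Id3 -0.24 (adjusted p = 0.744).

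**Figure D5:**
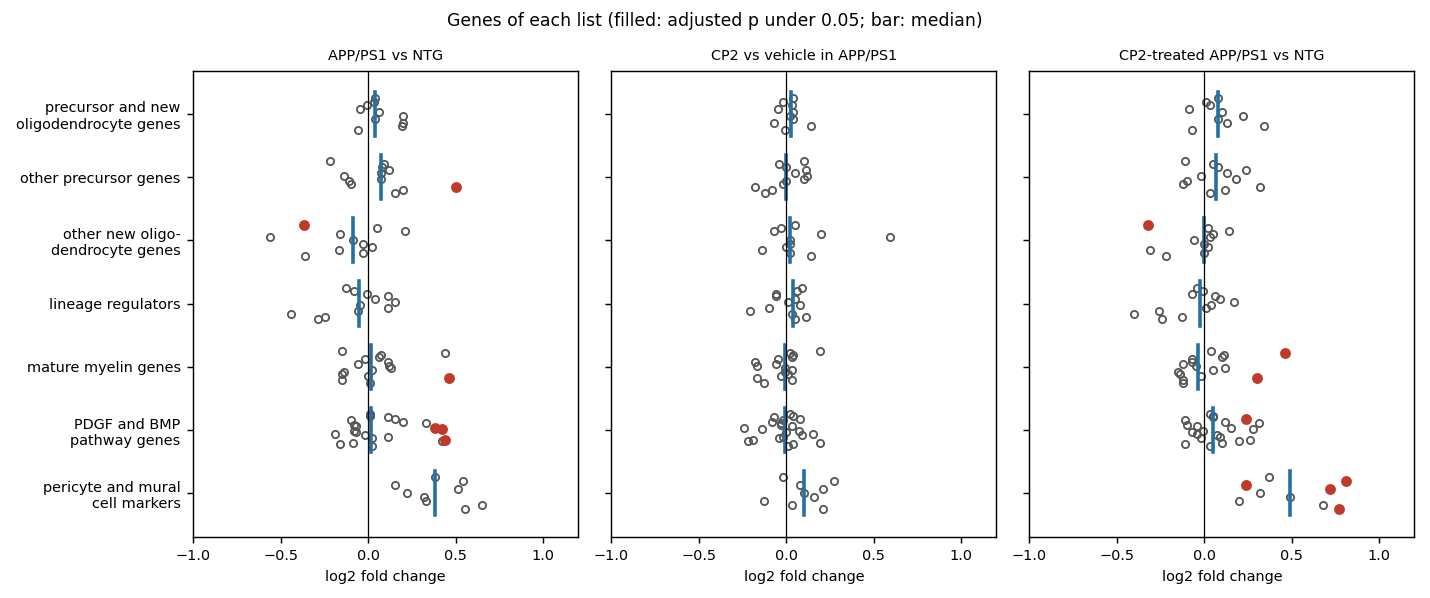
Log2 fold change of each gene of 7 lists in the 3 comparisons (1 point a gene, filled where the edgeR adjusted p is under 0.05, bar at the list's median). The 10 genes, in the top row, lie near 0 with no filled point, the other precursor genes and the other new oligodendrocyte genes hold 1 filled point each between APP/PS1 and NTG mice (Matn4 and Ust), and the pericyte and mural cell markers lie to the right in both comparisons with NTG mice, with medians of 0.38 and 0.49.

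Markers of some other cell types in the tissue were called where the 10 genes were not. Of all genes tested, 4.34% were called higher and 1.34% lower in APP/PS1 than in NTG mice. The 8 microglia markers were all higher in this comparison (8 of 8 called, median log2 fold change 1.01). Their summed level was 370.3 to 389.9 CPM in NTG, 700.3 to 976.2 in APP/PS1 and 573.0 to 875.7 in APP/PS1 + CP2 mice. With a mouse left out, adjusted p rose to as much as 0.0600 for P2ry12 (without NTG mouse 9, and to 0.106 with all 3 groups in one fit), 0.0787 for Tmem119 (call lost without NTG mouse 8, 9 or 10 or APP/PS1 mouse 17 or 19) and 0.118 for Aif1 (lost without the same NTG mice or any of APP/PS1 mice 17 to 20), while C1qa, Csf1r, Cx3cr1 and Itgam kept their calls. Of 6 astrocyte markers 1 was higher and 1 lower, beside the same shares of all genes, with a median of 0.05. Gfap, an intermediate filament protein, had a log2 fold change of 2.30 (SE 0.25, adjusted p = 0.000649). Slc1a2, a glutamate transporter, had -0.41 (SE 0.10, adjusted p = 0.0442), a call that was lost without NTG mouse 8, 9 or 10 or any of APP/PS1 mice 17 to 20 (-0.36 to -0.48 with a mouse left out, adjusted p up to 0.142), with no filter on low counts and with a minimum of 10 counts. Gja1 had -0.24 (adjusted p = 0.213), without overlap of the groups, and Aqp4 0.52 (adjusted p = 0.339), or 0.70 (adjusted p = 0.0170) without mouse 16. Of the 7 fibroblast and meningeal markers, a further source of Pdgfra transcripts, 0 were called in any comparison, against 5.68%, 0.00609% and 6.02% of all genes tested. Their summed level was 145.1 to 210.4, 88.1 to 244.0 and 134.3 to 266.8 CPM in the groups. Of the 9 pericyte and mural cell markers 4 were called higher in APP/PS1 + CP2 than in NTG mice, against 4.56% of all genes tested. These were Rgs5 (0.81, adjusted p = 0.000495), Abcc9 (0.77, adjusted p = 0.0240), Myh11 (0.72, adjusted p = 0.0368) and Pdgfrb. The calls of Abcc9 and Myh11 were lost without NTG mouse 7, 8 or 10 or CP2-treated mouse 24 (fold changes of 0.67 to 0.91 and 0.59 to 0.88 with a mouse left out). That of Myh11 was also lost without CP2-treated mouse 21 or 25 and in the joint fit.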

How the data were processed

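RNA from a brain section of 14 mice was sequenced with paired ends after TruSeq v2 library preparation, which does not mark strand. Per the study's methods the authors ran the MAP-RSeq pipeline, which aligned the reads to mm10 with TopHat2 and used FeatureCounts for Ensembl gene counts, in which reads over several genes count for each of them; the versions of TopHat2 and FeatureCounts are not given in the sources used here. The deposited table held raw read counts and RPKM values computed by the authors for each mouse, and gene lengths. Counts were tested, and RPKM was not.

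Samples were grouped by their titles. The 10 genes and all lists were chosen with earlier results of these data known. Each comparison was fitted on its 2 groups with edgeR 4.0.16 in R 4.3.3 (TMM factors, quasi-likelihood test, two-sided, no covariate, Benjamini-Hochberg adjustment over all genes tested). A gene was tested if its robust CPM was over 1 in all mice of either group. DESeq2 1.42.0, which the study used, and limma 3.58.1 were alternatives, as were RLE factors, no filter, at least 10 counts in all mice, a joint fit of the 3 groups, and each mouse left out. Patterns used log2 CPM with a prior count of 2. The code was tested on simulated data. No replicate pair was identical (26 pairs, lowest chi-square per degree of freedom 9.87). Labels give each mouse its own number and do not state cohorts, so p-values measure the spread between these samples. Named genes were the 10 genes, called genes and, in part, the genes of smallest p in each direction in each list and comparison (the others of these are not named), the 3 genes most like each of the 10, and overlapping genes. Vcan, Pcdh15, Tcf7l2, Mbp, Gja1, Pdgfb, Bmpr1a, Bmpr2, Nog, Id2 and Id4 were added for their known roles after their values were seen. Listed genes without a row (Lhfpl3 and 9630013A20Rik) were not analysed here, and Casr did not pass the filter.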

Additional observations from a re-analysis of the deposited data

How the results depend on the processing

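No alternative moved a call of the 10 genes past an adjusted p of 0.05. Of 150, 160 and 150 alternative values, 128, 141 and 141 kept direction and side of the threshold and 22, 19 and 9 changed sign, with lowest adjusted p of 0.096 (Cspg4 without APP/PS1 mouse 17), 0.65 and 0.126 (Gpr17 without NTG mouse 10). With limma-voom and sample quality weights Olig1 had 0.01, Olig2 0.05 and Bcas1 0.06 between APP/PS1 and NTG mice, Enpp6 -0.03 and Trf -0.04 with CP2, and Bcas1 0.06 between APP/PS1 + CP2 and NTG mice, all opposite in sign to the main values. The cause was not tested. With each mouse left out, sign changes fell in these ranges. For APP/PS1 against NTG mice log2 fold changes were -0.16 to 0.10 (Bcas1), -0.08 to 0.26 (Enpp6), -0.01 to 0.09 (Itpr2), -0.10 to 0.01 (Olig1), -0.07 to 0.08 (Olig2), -0.01 to 0.05 (Pdgfra) and -0.03 to 0.10 (Sox10). With CP2 they were -0.09 to 0.08 (Bcas1), -0.11 to 0.16 (Enpp6), -0.04 to 0.08 (Gpr17), -0.11 to 0.01 (Olig1), -0.03 to 0.08 (Olig2), -0.05 to 0.01 (Pdgfra), -0.01 to 0.11 (Sox10), -0.10 to 0.10 (Trf) and -0.19 to 0.12 (the astrocyte gene Aqp4). Between APP/PS1 + CP2 and NTG mice they were -0.15 to 0.09 (Bcas1), -0.05 to 0.30 (Enpp6), -0.03 to 0.09 (Olig2) and -0.02 to 0.04 (Pdgfra). The number of the 10 genes with an unadjusted p under 0.05 ranged from 0 to 1 between APP/PS1 and NTG mice with a mouse left out. Between APP/PS1 + CP2 and NTG mice it was 1 with no filter and 1 with limma-voom, and ranged from 0 to 2 with a mouse left out, with 2 without NTG mouse 9 or 10 or CP2-treated mouse 23. Over all genes, calls between APP/PS1 and NTG mice numbered 932, and 1667 with DESeq2, 1563 with limma-voom and 578 to 1474 with a mouse left out, the most being without mouse 16. With CP2 there was 1, and 23 with DESeq2, 0 in one fit of all 3 groups and 0 to 1 with a mouse left out. Between APP/PS1 + CP2 and NTG mice there were 989, and 1670 with DESeq2 and 572 to 1123 with a mouse left out. No paired analysis was possible because the groups are different mice and their titles name no pairs. Bmp4 had the fewest reads, with 106 to 252 a mouse. With groups of 4 and 5 mice, intervals reached past 1.5-fold for Bmp4 in both comparisons with NTG mice. For Enpp6 this held between APP/PS1 and NTG mice. These genes also had the largest coefficients of variation over all mice, 20.8% (Bmp4) and 23.0% (Enpp6). The causes of the wide intervals were not tested.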
